A study of Mus musculus with 23 samples.

Results

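The report concerns 10 genes that mark Müller glia, the radial support cells of the neural retina, in mouse retinal organoids: Rlbp1, Glul, Slc1a3, Kcnj10, Aqp4, Sox9, Apoe, Car14, Dkk3 and Clu. They were picked by symbol among the 52143 genes of the count table, and all 10 had counts in all 23 libraries and passed the filter on low counts in each fit. Müller glia arise from the same progenitors as retinal neurons, late in retinal development, and span the whole depth of the retina. They take up glutamate and turn it into glutamine, carry potassium and water between neurons and vessels, bind retinoids and secrete lipid carriers, and the genes below belong to those tasks. None of the genes is particular to Müller glia in all settings: Slc1a3 and Sox9 are also used by progenitors and astrocytes, Kcnj10 and Aqp4 by astrocytes, Rlbp1 by pigment epithelium, Apoe by microglia and astrocytes, Dkk3 by neurons and Clu by many cells.

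The organoids came from 1 clone of wild-type induced pluripotent stem cells carrying the Nrl-GFP rod reporter, made from embryonic mouse fibroblasts. From day 10 they received bovine serum albumin alone (BSA), or linoleic acid (LA) or docosahexaenoic acid (DHA) carried on BSA, each fatty acid at 26 µM (the labels have lost the micro sign). Up to day 26 all cultures also had 9-cis retinal, taurine and insulin-like growth factor 1, and from day 26 all cultures had serum, B27 without vitamin A and amino acids added. FGF1, a fibroblast growth factor, was added to some cultures from day 26 at 200 ng/ml. RNA came from neural retina cut out of 12 pooled organoids. The 9 groups were day 26 in each medium (2 libraries each), day 32 in each medium without FGF1 (3 each), and day 32 with FGF1 in BSA (3), LA (3) and DHA (2). The labels call the libraries biological replicates and do not say whether they came from separate differentiations, so p-values measure the spread between these libraries.

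The libraries fell into 2 sets of depth. The 12 deeper ones were the 6 day 26 libraries and, for every FGF1 group, replicates 1 and 2, and held 16029580 to 20510550 counts with 3.02% to 4.24% mitochondrial counts. The 11 shallower ones comprised the 9 day 32 libraries that had no FGF1, plus the last replicate of the BSA and the LA groups given FGF1, and held 10405663 to 11888224 counts with 5.55% to 12.5% mitochondrial counts. The authors left 5 of the shallower libraries out of their normalized table: replicate 1 of each day 32 group without FGF1, and both shallower FGF1 libraries. Comparisons within 1 set are therefore given first. In the deeper set, age, the change of medium at day 26 and FGF1 move together and cannot be told apart. In these bulk samples more cells of a type and more RNA per cell cannot be told apart either.

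The order of the 10 genes by level was set on a length-scaled scale (estimated transcript counts divided by annotated transcript length and scaled to a common total in each library), since that is the only one that compares genes. At day 26 the lipid carrier gene Apoe was highest, with a median of 469 over the 6 libraries (385 to 556). Dkk3 (240), Glul (170), Clu (86.5) and Rlbp1 (81.1) followed, then Car14 (31.9), Slc1a3 (29.7) and Sox9 (9.40). The ranges of Clu (45.1 to 173) and Rlbp1 (42.4 to 110) overlapped, and the summed transcript counts of Clu used here are a median of 1.28 times its gene counts in the deeper set, so their order is not set. The ranges of Glul (157 to 206) and Clu also overlapped, as did those of Car14 (26.0 to 38.3) and Slc1a3 (22.9 to 37.4). Their order is not set either. The 2 channel genes were lowest, with Aqp4 at 1.74 and Kcnj10 at 0.831. At day 32 with FGF1 in the deeper libraries Apoe had the highest median at 499.9 (351 to 981), followed by Rlbp1 at 364 (320 to 433), Dkk3 at 320 (286 to 355) and Clu at 261 (204 to 322). Glul came next at 229.5 (201 to 325). The range of Rlbp1 overlapped those of Apoe, Dkk3, Clu and Glul, so the full order of these genes is not set by these libraries. Slc1a3 reached 149 (125 to 309), a range that overlapped those of Dkk3, Clu and Glul. Kcnj10 reached 11.8, which put it level with Sox9 (10.2).

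**Figure D1:**
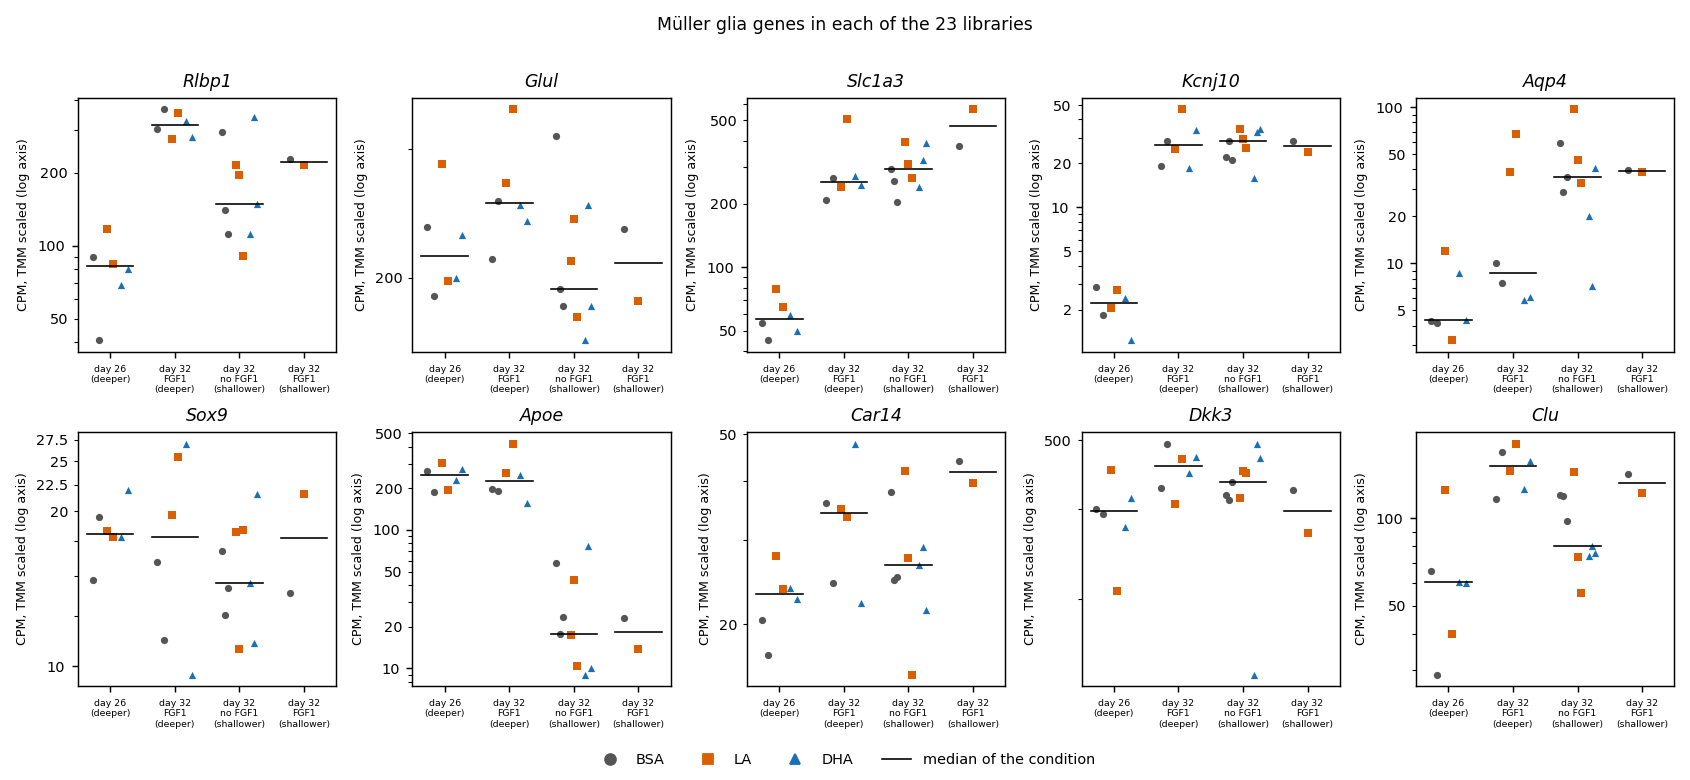
Normalised read counts (CPM, scaled by TMM over the 23 libraries, log axis) of the 10 genes in each library, by day, FGF1 and depth set on the horizontal axis. Symbols give the medium and the line is the median. Rlbp1, Slc1a3 and Kcnj10 lie higher in all 6 deeper day 32 libraries than in all 6 day 26 libraries, and Apoe is low in all 11 shallower libraries.

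Between day 26 and day 32 with FGF1, within the deeper set, 6 of the 10 genes rose, none fell, and Glul, Sox9, Apoe and Dkk3 did not pass the test (edgeR quasi-likelihood test, Benjamini-Hochberg adjusted p under 0.05 over 20111 genes). Of all genes tested, 28.7% were called, 14.6% higher and 14.1% lower. The median log2 difference of the 10 genes was 0.92, against 0.00 over all genes tested. The rises were in the retinoid carrier Rlbp1, the glutamate transporter Slc1a3, the channels Kcnj10 and Aqp4, the carbonic anhydrase Car14 and the chaperone Clu. The CPM of 3 of the 10 genes, Rlbp1, Slc1a3 and Kcnj10, did not overlap between the 6 and 6 libraries, where 8.53% of all genes were higher without overlap and 7.69% lower.

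Rlbp1 encodes CRALBP, the protein that holds 11-cis retinoids in Müller glia and pigment epithelium (gene ENSMUSG00000039194, chromosome 7, 79374870 to 79387048, minus strand, GRCm38). At day 26 it stood at 89.5 and 40.6 CPM in BSA, 118 and 84.4 in LA, and 68.5 and 80.02 in DHA. At day 32 with FGF1 it stood at 304 and 365 CPM in BSA, 276 and 352 in LA, and 328 and 280 in DHA. All 6 later libraries were above all 6 earlier ones. Its log2 difference was 2.03 (SE 0.18, adjusted p = 1.8e-05), a 4.08-fold rise, and the spread narrowed from a coefficient of variation of 31.6% to 11.7%.

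Slc1a3 encodes GLAST, the transporter by which Müller glia clear glutamate (ENSMUSG00000005360, chromosome 15, 8634124 to 8710764, minus strand). It stood at 54.5 and 44.8 CPM in BSA, 78.6 and 64.6 in LA, and 59.2 and 49.5 in DHA at day 26. It stood at 209.2 and 265 CPM in BSA, 241 and 509 in LA, and 270 and 245 in DHA at day 32 with FGF1. The LA replicate 2 library was the high one, and all 6 later libraries were above all 6 earlier ones. The log2 difference was 2.32 (SE 0.17, adjusted p = 4.9e-06), and it was called with each library left out in turn. Glul, the glutamine synthetase that acts on the glutamate so taken up (ENSMUSG00000026473, chromosome 1, 153899944 to 153909723, plus strand), ranged from 189 to 287 CPM at day 26 with a median of 214. It ranged from 212 to 340 CPM with a median of 253 at day 32 with FGF1. The ranges overlapped, and its log2 difference was 0.24 (SE 0.12, adjusted p = 0.16).

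Kcnj10 encodes Kir4.1, the inward rectifier channel that gives Müller glia their potassium conductance (ENSMUSG00000044708, chromosome 1, 172341210 to 172374085, plus strand). At day 26 it was close to the floor, at 2.85 and 1.84 CPM in BSA, 2.05 and 2.71 in LA, and 2.42 and 1.23 in DHA, from 22.5 to 53.7 estimated counts per library. At day 32 with FGF1 it stood at 19.1 and 28.5 CPM in BSA, 24.98 and 46.7 in LA, and 18.7 and 33.7 in DHA, from 364 to 890 counts. The groups did not overlap. The log2 difference was 3.72 (SE 0.26, adjusted p = 3.0e-06), a 13.1-fold rise and the largest of the 10. Aqp4, the water channel held beside Kcnj10 at glial endfeet (ENSMUSG00000024411, chromosome 18, 15389394 to 15403684, minus strand), had a smaller difference. It stood at 4.27 and 4.14 CPM in BSA, 12.0 and 3.21 in LA, and 8.71 and 4.34 in DHA at day 26. It stood at 10.0 and 7.44 CPM in BSA, 38.4 and 67.3 in LA, and 5.85 and 6.10 in DHA at day 32 with FGF1. Only the LA libraries lay clear of the day 26 range. The log2 difference averaged over media was 1.26 (SE 0.30, adjusted p = 0.0081), called with each library left out in turn.

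Clu encodes clusterin, a secreted chaperone and lipid-binding protein (ENSMUSG00000022037, chromosome 14, 65968483 to 65981547, plus strand). It stood at 65.7 and 29.0 CPM in BSA, 125 and 40.0 in LA, and 60.5 and 60.0 in DHA at day 26. It stood at 116 and 169 CPM in BSA, 146 and 181 in LA, and 126 and 158 in DHA at day 32 with FGF1. Only LA replicate 1 at day 26 reached the later range. The log2 difference was 1.29 (SE 0.27, adjusted p = 0.0040). Apoe, the main lipid carrier of retinal glia (ENSMUSG00000002985, chromosome 7, 19696109 to 19699188, minus strand), ranged from 189 to 307 CPM at day 26 and from 157 to 421 at day 32 with FGF1. Its log2 difference was -0.02 (SE 0.18, 95% interval -0.45 to 0.41, adjusted p = 0.96).

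Car14, a membrane carbonic anhydrase that buffers acid at the glial surface (ENSMUSG00000038526, chromosome 3, 95897768 to 95904691, minus strand), stood at 20.4 and 17.3 CPM in BSA, 27.8 and 23.7 in LA, and 23.8 and 22.6 in DHA at day 26. It stood at 35.9 and 24.4 CPM in BSA, 34.9 and 33.5 in LA, and 47.8 and 22.1 in DHA at day 32 with FGF1. One BSA and 1 DHA library of day 32 lay within the day 26 range. The log2 difference was 0.58 (SE 0.18, adjusted p = 0.028). This was the weakest of the 6 calls: it was lost when any of 8 of the 12 libraries was left out (adjusted p up to 0.082), namely BSA replicate 2, LA replicate 2 and both DHA replicates of day 26, and BSA replicate 1, both LA replicates and DHA replicate 1 with FGF1.

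Sox9, the transcription factor that progenitors pass on to Müller glia (ENSMUSG00000000567, chromosome 11, 112782224 to 112787760, plus strand), had a median of 18.1 CPM at day 26 (14.7 to 21.97) and of 17.8 at day 32 with FGF1 (9.64 to 27.0). Its log2 difference was -0.02 (SE 0.22, 95% interval -0.55 to 0.51). The later libraries ran from below to above the day 26 range, and the coefficient of variation went from 13.0% to 39.7%. Dkk3, a secreted member of the Dickkopf family that glia and neurons of the retina make (ENSMUSG00000030772, chromosome 7, 112116017 to 112159057, minus strand), had a median of 397 CPM at day 26 (308 to 454) and of 460 later (407 to 494), with a log2 difference of 0.23 (SE 0.11, adjusted p = 0.14).

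Single libraries carried several genes at once. LA replicate 1 was the highest of the 6 day 26 libraries for 8 of the 10 genes, all but Kcnj10 and Sox9, and BSA replicate 2 was the lowest for 6. Among the deeper FGF1 libraries LA replicate 2 was the highest for 6 genes: Glul, Slc1a3, Kcnj10, Aqp4, Apoe and Clu. Without LA replicate 1 of day 26, 8 genes were called higher, Glul and Dkk3 being the added ones. Rlbp1, Slc1a3, Kcnj10, Aqp4 and Clu were called with each of the 12 libraries left out.

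**Figure D2:**
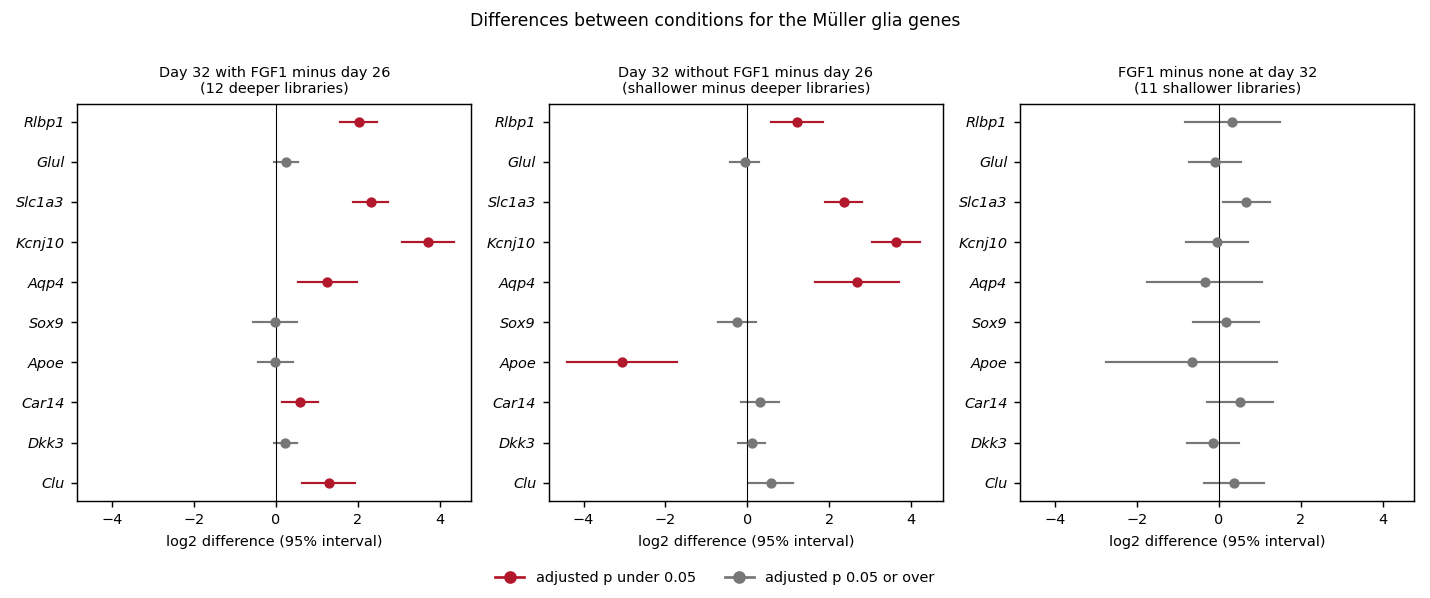
Log2 differences of the 10 genes with 95% intervals in 3 comparisons, red where the adjusted p was under 0.05. The left panel has 6 genes called higher, the middle panel, where day and depth set cannot be told apart, has 4 higher and Apoe lower, and the right panel has none called.

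The upstream sequences are shown for Kcnj10, Slc1a3 and Rlbp1, the 3 genes whose groups did not overlap, to let their start sites be compared. Each run is the 250 bases before the RefSeq start site (GRCm38.p6), written in the direction of the gene, and capitals mark the match to the TATA motif TATAAA, which in both matches reads on the opposite strand. The windows are chr1:172340960-172341209 (plus strand), chr15:8710808-8711057 (minus) and chr7:79387028-79387277 (minus).
Kcnj10: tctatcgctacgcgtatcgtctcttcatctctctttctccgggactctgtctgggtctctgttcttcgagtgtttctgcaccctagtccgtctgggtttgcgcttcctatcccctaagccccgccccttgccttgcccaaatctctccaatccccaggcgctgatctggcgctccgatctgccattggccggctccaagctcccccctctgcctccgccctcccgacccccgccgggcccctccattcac
Slc1a3: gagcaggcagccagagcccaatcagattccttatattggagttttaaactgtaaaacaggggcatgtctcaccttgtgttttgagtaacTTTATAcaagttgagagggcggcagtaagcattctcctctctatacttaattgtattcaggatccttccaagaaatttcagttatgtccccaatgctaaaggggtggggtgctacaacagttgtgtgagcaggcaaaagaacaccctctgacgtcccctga
Rlbp1: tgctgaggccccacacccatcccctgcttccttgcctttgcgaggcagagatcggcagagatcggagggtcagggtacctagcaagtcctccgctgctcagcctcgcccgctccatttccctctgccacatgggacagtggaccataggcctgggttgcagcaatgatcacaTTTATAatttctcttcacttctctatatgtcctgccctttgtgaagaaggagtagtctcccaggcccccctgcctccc
The match began 78 bases before the start in Rlbp1 and 161 bases before it in Slc1a3, and Kcnj10 held none. Of 32851 promoter windows of 300 bases, reaching 50 bases past the start, 13.6% held TATAAA on either strand. A window was found for 6 of the 10 genes, 8 windows in all, those for Apoe being 3; Aqp4, Sox9, Dkk3 and Clu had none in the table. The SOX motifs AACAAT or AACAAAG (15.7% of all windows) and the RBPJ motif TGGGAA (25.6%) each matched in 1 of the 8 windows, both of Apoe. The palindromic NFI motif (0.0365%) matched in none. TATAAA matched in 3 of the 8 windows: those of Rlbp1 and Slc1a3, and 1 of Apoe, which held 2 matches. Both strands were searched.

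The 22 other Müller glia markers were read in the same comparison. Of these, 16 rose and 2 fell between day 26 and day 32 with FGF1, with a median log2 difference of 0.61. Of all genes tested, 14.6% rose and 14.1% fell. The 4 with the smallest p were all higher. Crym, a thyroid hormone-binding protein, rose by 1.75 (SE 0.21, adjusted p = 0.00013). The hyaluronan receptor Cd44 rose by 1.14 and the transcription factor Nfix by 0.73. The lipid transporter Abca8a rose by 3.84 (SE 0.49), from between 0.105 and 3.12 CPM to between 8.62 and 21.96. The 2 that fell were Lhx2 (-0.54) and Sox2 (-0.49), transcription factors that progenitors also use; they were named after their values were seen. Leaving out single libraries gave 15 to 17 higher and 1 or 2 lower, with 1 lower without BSA replicate 2 or DHA replicate 2 of day 26, or without BSA replicate 2, LA replicate 1 or DHA replicate 2 with FGF1. The summed level of the list was 1215 to 1666 CPM at day 26 and 2192 to 3286 at day 32 with FGF1. Of the 22 genes, 6 also stand in another list below: Gfap, Sox2, Sox8, Hes1, Slc38a3 and Rdh10.

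**Figure D3:**
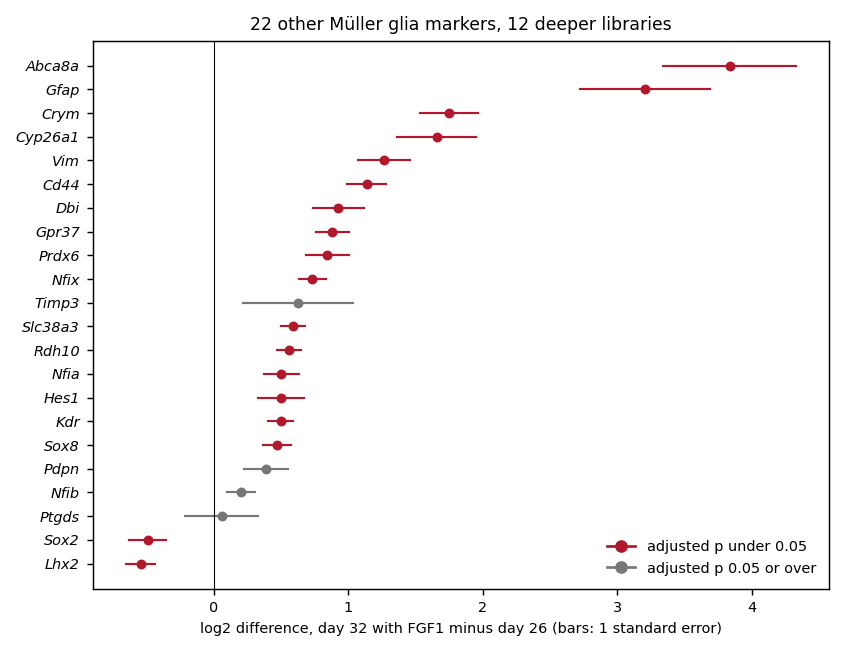
Log2 differences between day 32 with FGF1 and day 26 in the 12 deeper libraries for 22 other Müller glia markers, with 1 standard error, sorted by size. Red marks an adjusted p under 0.05: 16 genes lie to the right of 0, and Sox2 and Lhx2 to the left. Over all genes tested, 14.6% were called higher and 14.1% lower.

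The partners of the 10 genes were read by task, from lists of non-members, beside the 14.6% of all genes that rose and the 14.1% that fell in this comparison. Of 12 glutamate and glutamine genes tested, 6 rose and 1 fell, with a median of 0.28. They included the glutamine exporter Slc38a3 (0.59) and the transporters Slc1a4 (0.62) and Slc1a7 (0.76). The 1 that fell, named after its value was seen, was the neutral amino acid transporter Slc1a5 (-1.19). Of 12 genes for potassium and water channels and their anchoring to the membrane, 4 rose and 2 fell. Those that rose included parts of the dystrophin complex: the syntrophin Sntb1 (2.37, adjusted p = 2.2e-05), the laminin receptor dystroglycan, Dag1 (0.83), and dystrobrevin, Dtna (0.82). The 2 that fell, named after their values were seen, were the potassium channel Kcnk2 (-1.50) and the water channel Aqp11 (-0.49). Of 11 retinoid genes tested, 6 rose and 2 fell. The photoreceptor dehydrogenases Rdh12 (2.88) and Rdh8 (1.29) and the interphotoreceptor carrier Rbp3 (0.77) rose, and the retinol-binding protein receptor Stra6 fell by 1.55. The first 3 of these are photoreceptor genes.

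Of 11 genes for carbonic anhydrases and bicarbonate transport, 5 rose and none fell. Car2, the cytosolic enzyme of Müller glia and other cells, rose by 1.59 (SE 0.13), the related Car10 by 1.94, and the bicarbonate transporters Slc4a10 by 1.07 and Slc4a7 by 0.78. Of 13 genes for apolipoproteins and cholesterol efflux, 3 rose and 1 fell, a share called that is near the 28.7% of all genes. The cholesterol esterifying enzyme Lcat rose by 2.92 (SE 0.30, adjusted p = 3.5e-05), the efflux pump Abca1 by 0.92 and the receptor Vldlr by 0.51, while the receptor Lrp8 fell by 0.35. Of 8 Dickkopf and other Wnt antagonist genes tested, 2 rose and 3 fell, among them Wif1 (-1.54), Dkkl1 (-1.35), Sfrp2 (-1.08) and Sfrp5 (1.69). Sfrp5 stayed under 1 CPM in each deeper library, so its rise lay near the floor. Of 10 SOX genes other than Sox9, 2 rose and 4 fell: Sox6 (1.62) was higher, and Sox11 (-1.45), Sox4 (-1.07) and Sox12 (-0.51) were lower.

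Notch signalling holds cells in a glial or progenitor state, and its genes moved both ways. Of 14, 4 rose and 4 fell, beside 14.6% and 14.1% of all genes tested. The effector Hes5 fell by 3.69 (SE 0.24, adjusted p = 2.3e-06), from between 26.6 and 47.3 CPM to between 1.34 and 4.88 CPM. The ligand Dll3 fell by 1.66. The ligand Jag1 rose by 1.99 and the effector Hey2 by 0.89.

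Markers of other cells were read in the same libraries, and their part in the rises was not tested. The shares of all genes beside them were again 14.6% higher and 14.1% lower. Astrocyte and optic stalk genes gave 6 higher and 1 lower of 11, and their summed level was 471 to 661 CPM at day 26 and 628 to 1218 at day 32 with FGF1. The rise of Gfap, an intermediate filament gene of astrocytes and stressed Müller glia, was 3.21 (SE 0.49, adjusted p = 0.00055). Its highest library was LA replicate 2 with FGF1, at 456 CPM against 34.8 to 60.4 CPM in the other deeper FGF1 libraries. The same library had the highest Slc1a3, Kcnj10 and Aqp4. Others of the astrocyte list were Pdgfra (1.33), S100b (2.68) and Slc1a2 (0.42). The 1 that fell was Olig2 (-1.20), and the optic stalk gene Pax2 reached at most 4.56 CPM in the deeper libraries; both were named after their values were seen. All 11 genes of the list exceeded 1 CPM in some deeper library.

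Pigment epithelium genes, which bear on Rlbp1, gave 0 higher and 3 lower of 10 tested: Pmel (-2.53), Tyr (-2.03) and Tyrp1 (-2.34). Their summed level was 32.7 to 387 CPM at day 26, highest in LA replicate 1, and 24.7 to 304 CPM later. Rpe65 and Best1 stayed under 1 CPM in each deeper library, as did Slc45a2. Among the deeper FGF1 libraries Rlbp1 was highest in BSA replicate 2 (365 CPM), where the pigment epithelium sum was 35.99 CPM. Among the day 26 libraries it was highest in LA replicate 1 (118 CPM), which also had the highest pigment epithelium sum. How Rlbp1 followed this sum over the libraries was not tested. Microglia genes, which bear on Apoe, summed to 5.82 to 8.59 CPM over 11 genes in the deeper libraries; C1qb and Ctss had no counts in any of them, and 7 of the 11 stayed under 1 CPM. Of the 4 that could be tested, Cd68 was higher (0.77) and C1qa lower (-4.59). Mesenchyme genes gave 1 higher of 13 (Fbln2, 2.08) and summed to 36.2 to 137 CPM at day 26 and 44.3 to 524 later, highest in LA replicate 1 with FGF1. Ciliary margin genes gave 1 higher of 11 (Rdh10, 0.56). Over all genes tested in this comparison, 14.6% were higher and 14.1% lower.

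Among retinal neurons and progenitors, 13 of 15 rod genes rose and none fell (median 1.75; Guca1b 4.98 and Rcvrn 4.33 among them), and 7 of 10 bipolar genes rose and 2 fell (Scgn 4.14, Grm6 6.77). Of 14 progenitor and cell cycle genes 1 rose and 11 fell (median -1.06; Fgf15 -3.53 among them), and of 12 amacrine and ganglion genes 1 rose and 5 fell, Pax6 by 0.59. The list of other Müller glia markers, at a median of 0.61, thus lay between the rod and the progenitor genes in these libraries. Over all genes tested, 14.6% were higher and 14.1% lower. No test set these lists against each other.

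The effect of FGF1 itself can be read within 1 depth set only from the shallower libraries, 9 without it and 2 with it. This comparison averages BSA and LA, since the shallower set has no DHA library with FGF1. None of the 10 genes was called there, nor any of the 19484 genes tested (0% called), with 931 genes at an unadjusted p under 0.05 by edgeR; DESeq2 called 16 genes, edgeR without the filter on low counts 7, edgeR with a replicate block 43 and limma voom none, and none of these called a member. Rlbp1 stood at 229 and 215 CPM with FGF1, and without it ran from 90.4 to 341 with a median of 148. Its log2 difference was 0.33 (SE 0.47, 95% interval -0.83 to 1.49). Kcnj10 stood at 28.4 and 24.1 CPM with FGF1, within the 15.8 to 34.4 without it, with a difference of -0.04 (95% interval -0.79 to 0.71). Aqp4 stood at 39.6 and 38.4 CPM, within 7.19 to 96.9, with a difference of -0.34 (95% interval -1.74 to 1.05). Both FGF1 libraries of these genes thus sat inside the spread of the 9 others.

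Slc1a3 was the 1 member with an unadjusted p under 0.05 in that comparison. It stood at 376 CPM in BSA and 562 in LA with FGF1, against 293, 257 and 204 in BSA, 395, 311 and 265 in LA, and 241, 322 and 389 in DHA without it. In each of BSA and LA the FGF1 library was above all 3 libraries without FGF1. Each medium has only 1 such FGF1 library, and the share of all genes in that order was not counted. The log2 difference was 0.67 (SE 0.23, adjusted p = 0.87), so it did not pass the correction. Car14 stood at 43.9 and 39.5 CPM with FGF1 and 15.7 to 41.9 without it, with a difference of 0.52 (SE 0.33, adjusted p = 0.87). For Apoe the difference was -0.66 (SE 0.85), with 23.1 and 13.8 CPM against 9.00 to 76.2. The other Müller glia markers gave 0 called of 22, with a median of 0.11.

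Set against day 26, the 9 libraries of day 32 without FGF1 differ in depth set as well as in age and medium, and these cannot be told apart. The fit on all 23 libraries has 1 mean per group and no term for depth set. Its BSA and LA groups with FGF1 hold libraries of both sets. Its standard errors and p-values therefore take in that gap and do not measure the spread between replicates alone. In the fit on all 23 libraries, 4 of the 10 genes were higher and 1 lower; of all 21124 genes 60.9% were called, 29.5% higher and 31.4% lower, and the median of the 10 was 0.44 against 0.02 over all genes. The 4 higher were Slc1a3 (2.35, SE 0.21), Kcnj10 (3.63, SE 0.28), Aqp4 (2.68, SE 0.48) and Rlbp1 (1.21, SE 0.30, adjusted p = 0.0023). Kcnj10 ran from 15.8 to 34.4 CPM in the 9 libraries, close to the 18.7 to 46.7 of the deeper FGF1 libraries. Slc1a3 (204 to 395 CPM) and Kcnj10 lay above all 6 day 26 libraries, where 17.5% of all genes were higher without overlap. Glul (-0.07), Sox9 (-0.26), Car14 (0.31), Dkk3 (0.10) and Clu (0.58, adjusted p = 0.055) were not called. The value of Clu moved with the processing: it was -0.25 with summed transcript counts, where it was not called, and 1.96 with an offset for the GC content of transcripts, where it was called. Clu was also called by limma voom (0.67), with a replicate block (0.71, edgeR adjusted p = 0.024), without BSA or LA replicate 1 of day 26, and without LA replicate 2 or 3 of day 32. With the GC offset 8 members were called in place of 5, the added ones being Clu, Car14 (0.63) and Dkk3 (0.40), all higher. The other Müller glia markers gave 12 higher and 5 lower of 22. Among those named above, Crym, Cd44 and Abca8a were higher and Lhx2 lower, as in the deeper set. Nfix and Sox2 went the other way from the deeper set. Nfix ran from 7.82 to 23.0 CPM in the 9 libraries, against 26.9 to 37.8 at day 26. Sox2 ran from 16.6 to 66.2 CPM, against 17.8 to 24.4 at day 26.

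Apoe levels separated by depth set. Apoe stood at 189 to 307 CPM in the 6 day 26 libraries and 157 to 421 in the 6 deeper FGF1 libraries, but at 9.00 to 76.2 in the 9 libraries without FGF1 and at 23.1 and 13.8 in the shallower FGF1 libraries. All 11 shallower libraries lay below all 12 deeper ones, and the share of all genes separated in this way was not counted. In the 9 libraries without FGF1 against the 6 of day 26, Apoe was lower without overlap, as were 21.8% of all genes. Its difference between day 32 without FGF1 and day 26 was -3.06 (SE 0.63, adjusted p = 0.00073). With the GC offset the difference was -0.93 (adjusted p = 0.0076). The transcripts of Apoe averaged 60.7% GC, higher than those of 97.4% of genes. In the same fit FGF1 against none at day 32, averaged over all 3 media and mostly deeper against shallower libraries, gave 4 members called against 45.3% of all genes (27.0% higher, 18.3% lower): Apoe (2.67), Rlbp1 (0.69) and Clu (0.65) higher and Aqp4 (-1.11) lower. With the GC offset Apoe alone was called (0.76), while Clu turned to -0.31 and Rlbp1 and Aqp4 were at 0.20 and -0.49. Apoe was also the 1 member called without DHA replicate 3, BSA with FGF1 replicate 2 or DHA with FGF1 replicate 2. Apoe and Aqp4 alone were called without BSA replicate 3, LA replicate 3, DHA replicate 1 or LA with FGF1 replicate 2, and Apoe and Clu alone without replicate 1 of BSA, LA or DHA with FGF1.

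The fatty acids were compared within each day and FGF1 state, in 9 comparisons, and no member was called in any. Of all genes, 0.00994% were called for DHA against LA with FGF1 (2 of 20111) and 0.0149% for LA against BSA with FGF1 (3 of 20111), and 0% in the other 7. Those 7 had 252 to 638 genes at an unadjusted p under 0.05 by edgeR. At day 26 the log2 differences of the 10 genes between DHA and LA ran from -0.47 to 0.13 with a median of -0.21. At day 32 without FGF1 they ran from -1.35 to 0.46 with a median of -0.06. At day 32 with FGF1 they ran from -3.18 to 0.03 with a median of -0.34, against -0.005 over all genes tested. Of the 10, 9 were negative, but this rests on 2 libraries a group. With single libraries left out, Rlbp1, Slc1a3, Kcnj10, Sox9 and Car14 reached positive values, up to 0.46 for Car14. LA replicate 2 was the highest deeper FGF1 library for 6 of the 10 genes.

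Aqp4 had the largest difference of the 10 genes in 8 of the 9 comparisons of media, the exception being DHA against LA at day 26, where Clu did (-0.47). With FGF1 it stood at 38.4 and 67.3 CPM in LA, 10.0 and 7.44 in BSA, and 5.85 and 6.10 in DHA, so both LA libraries were above the other 4. The log2 difference of DHA from LA was -3.18 (SE 0.53, 95% interval -4.47 to -1.89), with an adjusted p of 0.14 in the edgeR test. DESeq2 gave an adjusted p of 1.1e-07 and the replicate block one of 0.046, while limma voom gave 0.076 and the fit on all 23 libraries 0.96. The difference of LA from BSA was 2.62 (SE 0.51, adjusted p = 0.39). It was called by DESeq2 (adjusted p = 0.00010) and without the filter on low counts, but not by limma voom (0.091) or with the replicate block (0.17), and it was 1.35 in the fit on all 23 libraries. The shallower LA library with FGF1 stood at 38.4 CPM and the shallower BSA one at 39.6, so the order of LA over BSA was not seen there.

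Without FGF1, Aqp4 stood at 58.7, 28.5 and 35.9 CPM in BSA, 96.9, 46.3 and 32.7 in LA, and 20.3, 7.19 and 40.7 in DHA. The lowest 2 of the 9 libraries were DHA libraries, while the third lay within the range of the others. The lowest, DHA replicate 2, was also the highest of the 9 for Rlbp1, Apoe and Dkk3. It had the lowest mitochondrial share of the shallower set (5.55%). Its chi-square per degree of freedom was 79.0 and 94.4 against the other DHA replicates, which gave 27.0 between them. The part of this in its Aqp4 value was not tested. The difference of DHA from LA was -1.35 (SE 0.57, 95% interval -2.74 to 0.05), and it did not pass the edgeR test. At day 26 the libraries of LA (12.0 and 3.21 CPM) and DHA (8.71 and 4.34) interleaved, with a difference of -0.23 (SE 0.51). The change in the difference of DHA from LA between day 26 and day 32 with FGF1 was -2.95 (SE 0.72, adjusted p = 0.49) in the interaction test, in which no member and 0% of all genes were called, with 1272 genes at an unadjusted p under 0.05. DESeq2 (adjusted p = 0.012) and the fit without the filter on low counts called Aqp4 there, while limma voom (0.82) and the replicate block (0.29) did not. LA replicate 1 with FGF1 also had the highest mesenchyme sum and LA replicate 2 the highest astrocyte sum, and their part in the Aqp4 values was not tested. Apoe with FGF1 stood at 256 and 421 CPM in LA, 198 and 190 in BSA, and 251 and 157 in DHA, with a difference of DHA from LA of -0.77 (SE 0.31, adjusted p = 0.58).

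**Figure D4:**
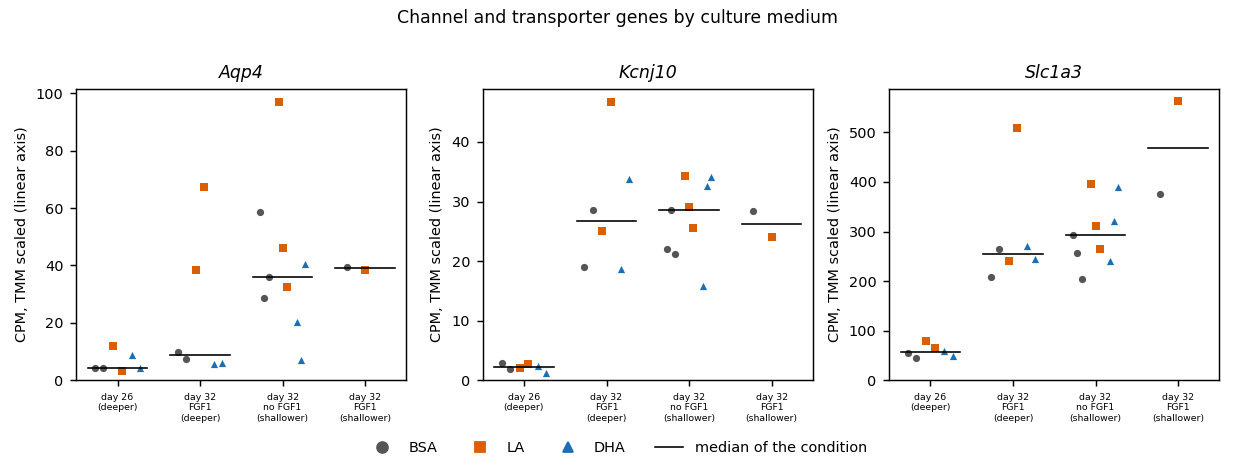
CPM of Aqp4, Kcnj10 and Slc1a3 in each library on a linear axis from 0, by day, FGF1 and depth set, with the medium as symbol and the median as line. Aqp4 with FGF1 in the deeper set is 38.4 and 67.3 in LA and at most 10.0 in the other media, while in the shallower set it is 38.4 in LA and 39.6 in BSA.

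Of the 10 genes, 6 have more than 1 annotated transcript, and the share of the leading one was compared between day 26 and day 32 with FGF1 in the deeper set (exact permutation test, 6 against 6, two-sided, adjusted over 6 tests). The share of Rlbp1-201 fell from 61.0% ± 4.1 (SD, n = 6) to 51.7% ± 4.3 (exact p = 0.0065, adjusted p = 0.032). That of Rlbp1-202 was 26.9% to 40.0% at day 26 and 38.9% to 49.1% later. Both transcripts have the same 7 coding exons. They differ in their non-coding 5′ part, Rlbp1-202 starting 89 bases further upstream and having the third exon shorter by 82 bases (GENCODE M21). The share of Car14-201 rose from 80.02% ± 2.7 to 85.1% ± 2.4 (exact p = 0.011, adjusted p = 0.032). With single libraries left out, a check added after seeing the data, both adjusted p ran from 0.026 to 0.065. Both calls were lost without BSA replicate 2, LA replicate 1, LA replicate 2 or DHA replicate 1 with FGF1, or either replicate of BSA or DHA at day 26, and that of Car14-201 also without LA replicate 2 of day 26. The leading transcripts of Glul, Slc1a3, Apoe and Clu were not called (adjusted p of 0.21 to 0.48). In the shallower day 32 libraries Rlbp1-201 averaged 70.8% without FGF1 and 75.5% with it, above its day 26 mean. Car14-201 averaged 69.7% and 63.4% there, below its day 26 mean. Both thus lay on the other side of day 26 from the deeper set, and day and depth set cannot be told apart in these values.

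Larger differences in transcript shares lay between the depth sets. Clu-206, a short transcript with its own first exon, took at most 0.422% of Clu counts in the 12 deeper libraries. In the shallower libraries it took 0% to 61.3% without FGF1 and 40.1% and 60.5% with it. Apoe-202, annotated as a processed transcript without a coding sequence, took 24.6% to 31.9% of Apoe counts in the deeper libraries and was listed at 0 in 10 of the 11 shallower ones. The sum of Clu transcript counts was 1.247 to 1.31 times the deposited gene count in the deeper libraries and 0.513 to 1.246 times in the shallower ones. With the summed transcript counts the difference of Clu between day 32 without FGF1 and day 26 was -0.25 in place of 0.58, whereas its rise in the deeper set was 1.28 in place of 1.29. Aqp4, Kcnj10, Sox9 and Dkk3 have 1 transcript each in the table.

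**Figure D5:**
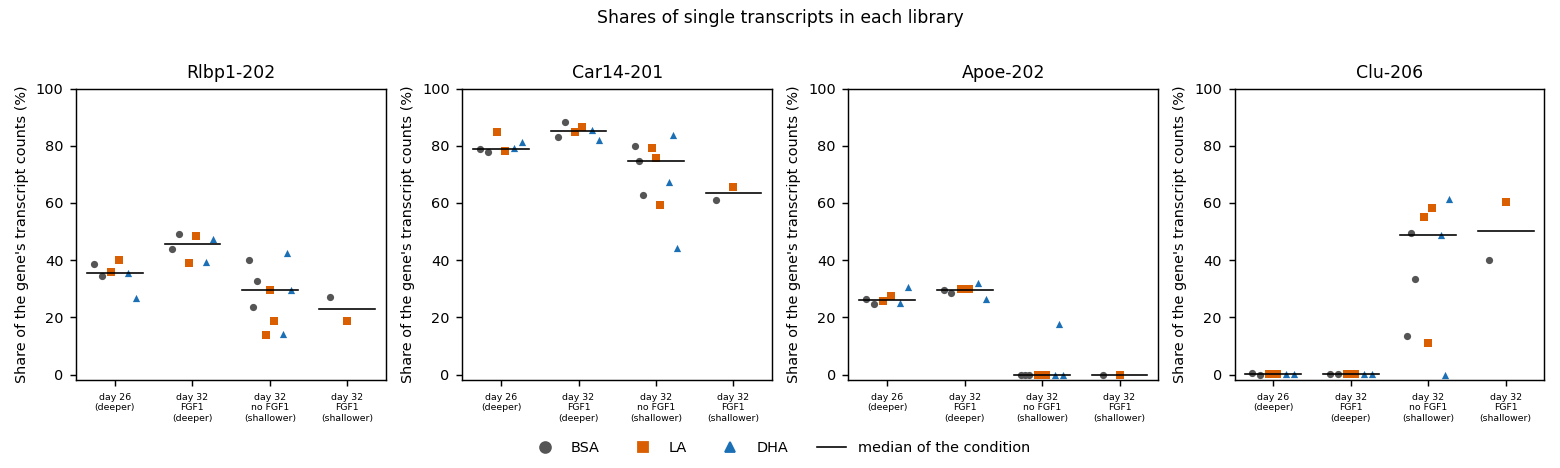
Share of 4 transcripts in the counts of their gene, in percent, in each library, by day, FGF1 and depth set, with the medium as symbol and the median as line. Clu-206 is near 0 in all 12 deeper libraries and reaches 61.3% in the shallower ones, and Apoe-202 is between 24.6% and 31.9% in the deeper set and at 0 in most of the shallower set.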

How the data were processed

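RNA-seq libraries of 23 organoid samples were analysed. The tools named in the submitters' processing notes are kallisto 0.45.0, Trimmomatic 0.36 and edgeR, with the build GRCm38.p6. The deposited gene and transcript tables hold estimated counts, which need not be whole. The authors also deposited a normalized CPM table of 18 libraries, treated as signal because its scaling is not given in the sources used here; it served for gene names and a check of levels. Gene counts were rounded, filtered (filterByExpr), scaled by TMM and tested by the edgeR 4.0.16 quasi-likelihood test in R 4.3.3, in fits on 12 deeper, 11 shallower or all 23 libraries, with media averaged. DESeq2 1.42.0, limma 3.58.1 (voom with quality weights), other scaling, no filter, GC offsets, a replicate block, the authors' 18 libraries, summed transcript counts (chosen after seeing the data) and single libraries left out were alternatives. All 23 columns were mapped to samples. Transcript names and exons came from GENCODE M21 (134456 of 136550 transcripts matched).

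The 10 genes and the lists were chosen with earlier results of these data known. The text names all 10, and from each list up to 4 others with the smallest p between day 26 and day 32 with FGF1. Some genes that this rule would name are not reported here. Replicate numbers paired DHA and LA at day 32 without FGF1 (correlations of 0.23, 0.55 and 0.35). They did not pair BSA there, with -0.07, -0.30 and 0.19 against DHA and 0.09, -0.20 and 0.19 against LA. The replicate block took in all media. No replicate pair of a group was alike within sampling noise (chi-square per degree of freedom 11.5 or more). With 2 to 3 libraries a group, precision is limited. Fits were tested on simulated data.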

Additional observations from a re-analysis of the deposited data

How the results depend on the processing

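Counts of members called were recomputed in 105 other settings and 102 fits with 1 library left out. Of these, 94 and 92 stayed within 1.5 times the value reported. In most comparisons no member was called in the fit reported, and staying at none is counted here as unchanged. Without the filter on low counts, 2 members were called for DHA against LA with FGF1 (Aqp4, Apoe), 1 for LA against BSA at day 26 (Clu), 3 for LA against BSA with FGF1 (Slc1a3, Aqp4, Apoe) and 1 in the interaction (Aqp4). DESeq2 called 1, Aqp4, in DHA against LA with FGF1, LA against BSA with FGF1 and the interaction. The replicate block called 1, Aqp4, for DHA against LA with FGF1, where only 2 pairs exist, and Clu for day 32 without FGF1 against day 26 (0.71); in FGF1 against none in the shallower set it called 43 genes and no member. At day 26 the DHA and LA numbers ran against each other (correlation -0.12), and crossing them, chosen after seeing the data, called 0 genes. With GC offsets 8 members were called for day 32 without FGF1 against day 26 and 1 for FGF1 against none in all libraries, where Clu turned to -0.31. The shallower comparison of FGF1 against none averages BSA and LA only, unlike the one in all libraries, which also takes in DHA. Run in the fit on all 23 libraries, that average of BSA and LA called 1 member, Apoe, which turned from -0.66 to 2.67 because the deeper FGF1 libraries enter it, and the same fit called 2001 genes in place of 5773 for day 32 with FGF1 against day 26. Leaving out single libraries gave 1 to 4 members for FGF1 against none in all libraries: 1 (Apoe) without DHA replicate 3, BSA with FGF1 replicate 2 or DHA with FGF1 replicate 2, and 2 without BSA replicate 3, LA replicate 3, DHA replicate 1, BSA with FGF1 replicate 1, either of replicates 1 and 2 of LA with FGF1, or DHA with FGF1 replicate 1. Over all genes, the fit for DHA against LA with FGF1 called 2 genes, against 528 without the filter, 147 by DESeq2, 20 with the block and 0 with summed transcript counts or all 23 libraries. For LA against BSA with FGF1 it called 3, against 367, 43, 3, 1 and 0. For the interaction it called 0, against 332 without the filter and 63 by DESeq2. Without the filter DHA against LA, DHA against BSA and LA against BSA at day 26 called 122, 59 and 128 genes in place of 0, and DHA against BSA with FGF1 99. At day 32 without FGF1, DHA against LA called 3 genes without the filter and 2 by DESeq2, DHA against BSA 8 without the filter and LA against BSA 1 by DESeq2, each in place of 0. FGF1 against none over BSA and LA called 2951 genes in the fit on all 23 libraries and 6 in the 5 libraries the authors left out, in place of 0; in all libraries it called 14761 by limma voom and 2744 with GC offsets in place of 9563. The causes of these shifts were not tested, except where given. Low counts limit Kcnj10 at day 26, which rested on 22.5 to 53.7 counts a library although these libraries are in the deeper set.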
